A study of Sus scrofa with 6 samples.

Results

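WDR76 is a WD-repeat protein that binds the CUL4 ubiquitin ligase, and its mRNA was described here together with 7 parts of that ligase in pig embryos at the 4-cell stage. The 8 genes (WDR76, DDB1, DDB2, CUL4A, CUL4B, DCAF13, DTL and RBX1) were found by symbol among 30376 genes of the expression table, and each matched 1 row. WDR76 was selected on its measured values, since its level was lower in every heated library than in every control library. Its difference between temperatures is therefore given as a description with no test. The other 7 genes were chosen by function, as scaffold, adaptor, RING subunit or receptors of the same ligase.

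CUL4 ligases attach ubiquitin to chosen proteins, mostly in the nucleus. A cullin scaffold (CUL4A or CUL4B) holds the RING protein RBX1 at one end, where the ubiquitin-charged enzyme docks, and the adaptor DDB1 at the other. DDB1 carries one of many exchangeable WD-repeat receptors that choose the substrate, and attachment of the small protein NEDD8 to the cullin switches the ligase on. In oocytes and early embryos the CUL4 ligase is known for its part in oocyte survival, in replication licensing and in chromatin changes around the activation of the embryonic genome.

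Libraries came from embryos that had developed from oocytes activated by 2 electric pulses, with no fertilization described in the labels. The control group (3 libraries, genotype label WT) was cultured at 38.5 °C and the high-temperature group (3 libraries, genotype label HT) at 41.5 °C, both for 4 days in PZM-5 medium with serum albumin under oil, and no other genetic or chemical treatment is given for either group. The series asks how heat affects activation of the embryonic genome. About 300 samples of the 4-cell stage went into library construction, without a statement of how many per library, and no label states that replicates come from different cultures. The p-values therefore rest on variation among the 6 libraries as such, part of which may be technical. RNA was captured on oligo(dT), so only transcripts with a poly(A) tail were read, and in such bulk libraries fewer cells with a transcript and less of it per cell cannot be told apart.

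Each library held 28114005 to 30079385 reads in genes, and 16056 genes passed the filter on low counts, all 8 members among them. All 8 markers of oocyte and early embryo were detected. Their summed level was 2505 to 3464 CPM in controls and 2338 to 2631 CPM at 41.5 °C. CPM are read counts scaled to library size with a TMM factor for composition. DPPA3 (1176 to 2423 CPM) and BMP15 (775 to 982 CPM) made up most of this marker sum, and ZAR1 was lowest at 2.08 to 4.12 CPM. Of 7 measured cumulus and granulosa cell markers FSHR, AMH and FOXL2 had no reads. The list summed to 7.58 to 10.4 CPM in controls and 10.3 to 11.8 CPM at 41.5 °C, most of it from INHBA (4.58 to 9.31 CPM). The 8 stromal, endothelial and blood cell markers summed to 11.4 to 13.8 CPM and 10.4 to 11.9 CPM. The part of these cells in the results was not tested. Control replicate 1 stood apart in composition, with a scaling factor of 0.865 against 1.0 to 1.09 in the others.

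WDR76 mRNA was nearly the same in the libraries of a group and lay in separate ranges in the 2 groups. WDR76 binds DDB1, is recruited to sites of DNA damage and has been described as the receptor through which RAS proteins are degraded. The control libraries held 187, 176 and 159 CPM, and the heated libraries 99.5, 99.2 and 93.1 CPM. A log2 fold change below 0 means a lower level at 41.5 °C. The groups did not overlap, and the lowest control library lay 1.6 times above the highest heated one. On 4 other scales (library total, DESeq2 size factors, deposited TPM and deposited FPKM) this gap was 1.58 to 1.62 times. Among the 6310 tested genes with a mean of at least 10 CPM, 0 had a wider gap of this direction and 14 had a lower log2 fold change than WDR76, whose own was -0.84 with a standard error of 0.17. These values describe the gene and lend its choice no support, since the same libraries chose it.

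The spread within a group was small for WDR76. Selection on groups that do not overlap favours a small spread, so its rank among other genes is only a description. Its SD of log2 CPM was 0.11 in controls and 0.05 at 41.5 °C, against a median of 0.31 and 0.29 over the 6310 genes, and 13.9% and 2.55% of these genes varied less. Leaving out any 1 library gave a log2 fold change between -0.90 and -0.78. This range is likewise only a description, since the same libraries chose the gene. The raw counts were 4850, 5097 and 4800 in controls and 2906, 2854 and 2848 at 41.5 °C.

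WDR76 lies on chromosome 1 (127651765 to 127741357, minus strand, Sscrofa11.1), has 7 annotated transcripts and shares 1348 bases with FRMD5 on the other strand. Reads carry no strand with the kit that was used, and FRMD5 held 21 to 130 reads per library. Counted together the genes were at 189, 176 and 163 CPM in controls and 103, 101 and 97.4 CPM at 41.5 °C, and the groups again did not overlap.

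**Figure D1:**
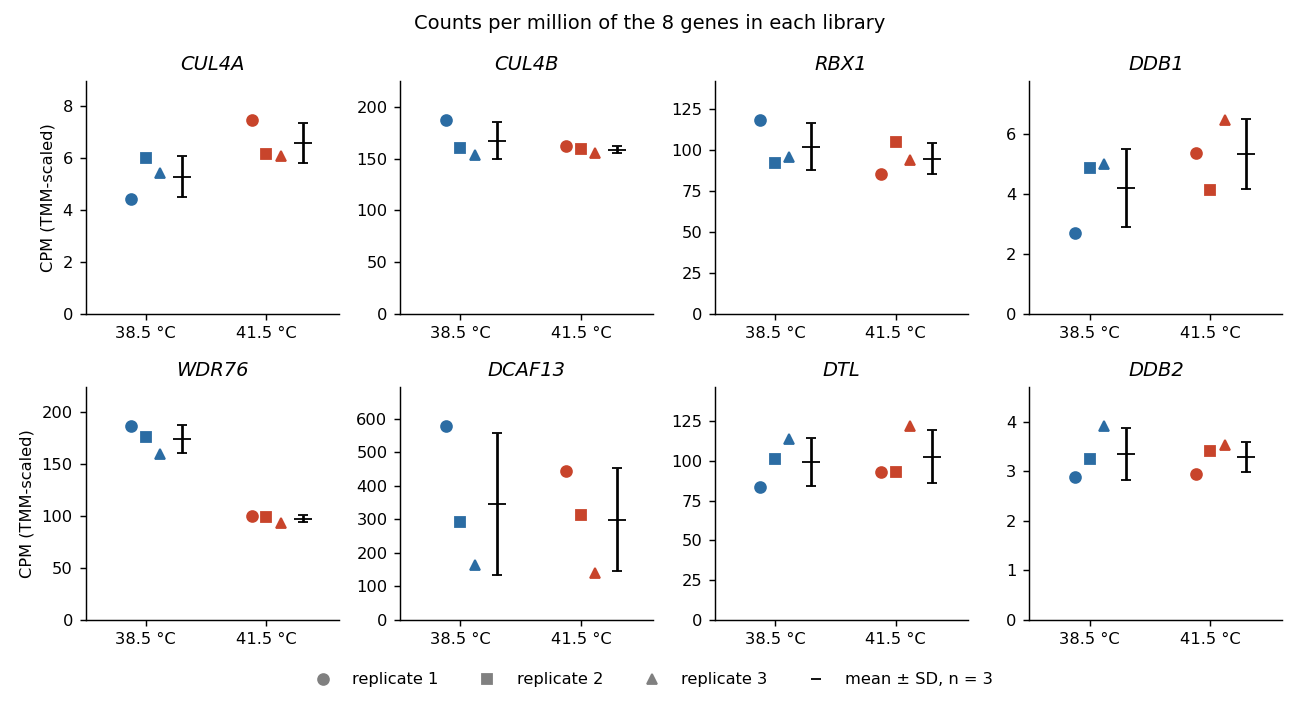
CPM (TMM-scaled, linear axes from 0) of each gene in the 3 control libraries (blue, 38.5 °C) and the 3 heated libraries (red, 41.5 °C), with symbols for the replicate number and bars for mean ± SD. The groups are separate for WDR76 (lowest control 159 CPM, highest heated 99.5 CPM) and just separate for CUL4A, and they overlap for the other 6 genes.

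Of the other 7 genes, 0 passed the edgeR quasi-likelihood test of high temperature against control (adjusted p = 0.999923 for each), and 0 had an unadjusted p below 0.05 by edgeR, DESeq2 or limma. Over all 16056 genes edgeR called 0 (0%), with 297 at an unadjusted p below 0.05, and DESeq2, which gave an adjusted p to 24749 genes, called 5. For 5 of the 7 genes the 95% interval of the difference stayed inside 2-fold both ways. The interval reached a 2.11-fold higher level for DDB1 and a 2.65-fold lower level for DCAF13.

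Among the scaffolds, CUL4B was at nearly the same level in all libraries. It held 188, 161 and 154 CPM in controls and 162, 159 and 156 CPM at 41.5 °C, and the groups overlapped. Its log2 fold change was -0.07 (95% interval -0.48 to 0.33), which leaves room for at most a 1.26-fold higher or 1.40-fold lower level, and the sign turned with scaling to the library total (0.029) and without control replicate 1 (0.015).

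CUL4A, the paralogue of CUL4B, was much scarcer. Its libraries held 4.42, 6.0 and 5.41 CPM in controls and 7.46, 6.15 and 6.08 CPM at 41.5 °C. All 3 heated libraries lay above all 3 controls, on the TMM scale and the 4 other scales, although the nearest libraries stood at 6.0 and 6.08 CPM. Over all genes tested 3.66% had this pattern (and 4.05% the opposite one, as WDR76, whose pattern chose it), and 1 of the 7 genes had it here. The log2 fold change of CUL4A was 0.31 (interval -0.23 to 0.86), and 0.20 without control replicate 1, whose count of 115 was the lowest.

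RBX1, the RING subunit that CUL4 shares with most other cullins, had 118, 91.9 and 95.7 CPM in controls and 85.5, 105 and 94.0 CPM at 41.5 °C. The libraries of both groups were intermixed. The log2 fold change was -0.11 (interval -0.56 to 0.34), and 0.013 without control replicate 1.

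DDB1, the adaptor on which every CUL4 receptor docks, had few reads, 70, 141 and 151 in controls and 157, 119 and 198 at 41.5 °C. These correspond to 2.69, 4.86 and 5.01 CPM and to 5.37, 4.13 and 6.47 CPM. Control replicate 1 was the lowest of the 6, and the groups overlapped. The log2 fold change of 0.35 (interval -0.39 to 1.08) was 0.11 without that library and 0.21 without high-temperature replicate 3.

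The receptor DCAF13 was the most variable of the 8 genes. It also has a conserved role in the nucleolus, in processing of ribosomal RNA, and in mouse oocytes and embryos it has been linked to degradation of the histone methyltransferase SUV39H1. Its libraries held 579, 292 and 165 CPM in controls and 446, 314 and 139 CPM at 41.5 °C. Replicate 1 was the highest and replicate 3 the lowest in both groups, on each of the 5 scales, with 3.52-fold and 3.20-fold between the extremes. Its SD of log2 CPM exceeded that of 94.4% of the 6310 genes above 10 CPM in controls and of 96.7% at 41.5 °C.

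Against this spread the temperatures did not differ detectably in DCAF13. The log2 fold change was -0.20 with an interval of -1.41 to 0.998, and it turned to 0.39 with control replicate 1 left out and to 0.18 with high-temperature replicate 3 left out. The same order of replicate numbers in both groups was common, with 29.9% of the 6310 genes highest in replicate 1 and lowest in replicate 3 in both groups, and 24.5% the reverse. What the replicate numbers share was not tested.

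DTL, the receptor (CDT2) that recognizes substrates such as CDT1, KMT5A and CDKN1A bound to PCNA on chromatin, had 83.4, 101 and 114 CPM in controls and 92.7, 93.3 and 122 CPM at 41.5 °C. Replicate 3 was the highest in both groups, which overlapped. The log2 fold change was 0.05 (interval -0.44 to 0.53), and it was -0.066 with control replicate 1 left out and -0.068 with high-temperature replicate 3 left out.

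DDB2, the receptor that detects ultraviolet lesions, was the scarcest receptor of the 8 genes. It held 2.89, 3.24 and 3.92 CPM in controls and 2.94, 3.40 and 3.53 CPM at 41.5 °C, from 75 to 118 reads per library. The groups overlapped, and the log2 fold change was -0.02 (interval -0.59 to 0.54), with a sign that turned to 0.061 on scaling to the library total. The value was -0.12 without control replicate 1 and 0.10 without control replicate 3.

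**Figure D2:**
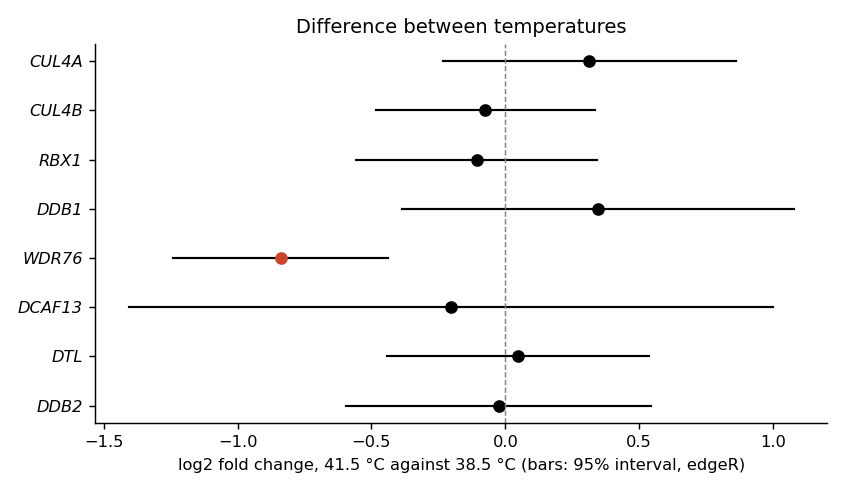
Log2 fold change of each gene, 41.5 °C against 38.5 °C, with its 95% interval from the edgeR fit. WDR76 (red) is at -0.84, and the interval drawn for it is no test, since this difference chose the gene. The intervals of the other 7 genes hold 0, and that of DCAF13 is the widest.

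Positions and neighbours bear on how far the counts can be read. DDB1 (chromosome 2, 10171554 to 10201602) and DDB2 (chromosome 2, 15342614 to 15370623) lie on one chromosome. CUL4A lies on chromosome 11 (78557030 to 78588964), CUL4B on X (98668945 to 98730582), DCAF13 on 4 (33672867 to 33704888), RBX1 on 5 (7500492 to 7515388) and DTL on 9 (131225840 to 131275426), all in Sscrofa11.1. DDB2, CUL4A and RBX1 overlap no other counted gene. DCAF13 shares 79 bases with SLC25A32, which had 2188 to 2561 reads per library, and CUL4B shares 725 bases with MCTS1, which had 60 to 161. DDB1 overlaps a long noncoding RNA with at most 4 reads per library, and DTL holds a pseudogene on its own strand with 8 to 17 reads. With the overlapping genes added, the log2 fold change was -0.20 for DCAF13, -0.07 for CUL4B, 0.33 for DDB1 and 0.05 for DTL.

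Levels of different genes can be compared only per length, for which the deposited TPM was used, and only for transcripts captured on oligo(dT). Over the 6 libraries DCAF13 was highest at a mean of 151 TPM (range 74.1 to 236), followed by RBX1 at 94.1 TPM (81.7 to 101), CUL4B at 43.4 TPM (41.3 to 49.7), WDR76 at 36.3 TPM (25.8 to 49.2) and DTL at 32.1 TPM (22.1 to 42.1). CUL4A at 2.19 TPM (1.37 to 2.72), DDB1 at 1.5 TPM (0.696 to 2.21) and DDB2 at 1.42 TPM (0.894 to 2.03) were far below. The 8 genes thus fell into 5 abundant and 3 scarce ones, with 14.7-fold between the means of DTL and CUL4A.

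Neighbours in this order were mostly not separate. RBX1 lay above CUL4B and DTL above CUL4A in every library with no overlap of ranges. DCAF13 and RBX1 overlapped, with DCAF13 above in 4 of 6 libraries, and DDB1 was above DDB2 in 4 of 6. CUL4A was above DDB1 in 6 of 6 libraries, but their ranges overlapped. WDR76 stood above both CUL4B and DTL in all 3 controls and below both in all 3 heated libraries. Its level relative to CUL4B was 1.05, 1.13 and 1.06 in controls and 0.639, 0.655 and 0.520 at 41.5 °C. Relative to DTL it was 1.97, 1.53 and 1.19 in controls and 0.928, 0.928 and 0.613 at 41.5 °C. The crossing and these ratios carry the difference by which WDR76 was chosen, so they only describe it.

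**Figure D3:**
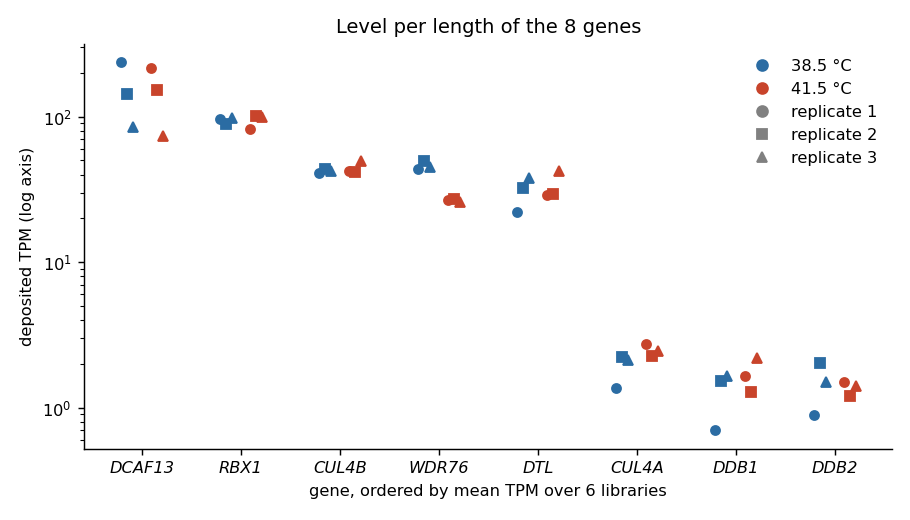
Deposited TPM (log axis) of each gene in every library, ordered by the mean over the 6 libraries, in blue for 38.5 °C and red for 41.5 °C. DCAF13, RBX1, CUL4B, WDR76 and DTL lie above 20 TPM in every library, and CUL4A, DDB1 and DDB2 below 3 TPM.

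CUL4B made up most of the CUL4 scaffold mRNA captured on oligo(dT). Its share of the summed TPM of CUL4A and CUL4B was 95.7% ± 0.926 (SD, n = 3) in controls and 94.7% ± 0.698 (SD, n = 3) at 41.5 °C. CUL4B exceeded the adaptor DDB1 by 59.3 times in control replicate 1, where DDB1 had 70 reads, and by 22.5 to 32.5 times in the other 5 libraries. It was itself exceeded by RBX1 by 1.94 to 2.42 times. In controls DDB1 ranked above 40.6% of the tested genes by TPM, against 88.9% for CUL4B and 93.8% for RBX1.

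DCAF13 held a large and variable share of the captured receptor mRNA. The sum was taken over 29 tested genes of receptors and receptor partners (WDR76, DCAF13, DTL, DDB2 and a list of 25 others). That list includes DDA1, a small protein that binds the DDB1 complex. DCAF13 took 52.1%, 32.9% and 21.8% of the summed TPM in the control libraries and 47.7%, 37.7% and 20.7% in the heated ones. WDR76 took 9.58%, 11.3% and 11.6% in controls and 5.97%, 6.74% and 7.23% at 41.5 °C. Its shares carry the difference by which it was chosen and only describe it. The total over the 29 genes was 426 ± 33.7 TPM in controls and 404 ± 46.3 TPM at 41.5 °C (SD, n = 3).

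The 5 genes whose pattern over the 6 libraries was most like that of WDR76 were RAB39A (a small GTPase), PTTG1 (securin, the inhibitor of separase), PRR13, PPIA (cyclophilin A, a prolyl isomerase) and NDUFB1 (a subunit of respiratory complex I). Likeness was the root mean square difference of log2 CPM, centred on each gene's mean, over 6295 genes with a symbol and at least 10 CPM, and it was 0.0906, 0.116, 0.128, 0.143 and 0.157 for these genes. RAB39A had 25.3, 22.7 and 21.6 CPM in controls and 15.1, 13.1 and 14.0 CPM at 41.5 °C. PTTG1 was at 8743, 8828 and 7900 CPM and at 4895, 5737 and 5366 CPM. PPIA had 2156 ± 123 CPM in controls and 1450.4 ± 118 CPM at 41.5 °C (SD, n = 3). All 5 had every heated library below every control, as the likeness to WDR76 requires.

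The other ligase parts with at least 10 CPM were not among the closest genes. CUL4B and RBX1 differed from WDR76 by 0.386 and 0.387, with 1179 and 1193 of the 6295 genes closer. DTL differed by 0.508 with 3615 genes closer, and DCAF13 by 0.735 with 5811 genes closer. DDB1, DDB2 and CUL4A were below 10 CPM and were not compared. NDUFB1 and RAB39A overlap other counted genes (CPSF2 for NDUFB1 and 3 genes for RAB39A), so their own values are less certain.

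**Figure D4:**
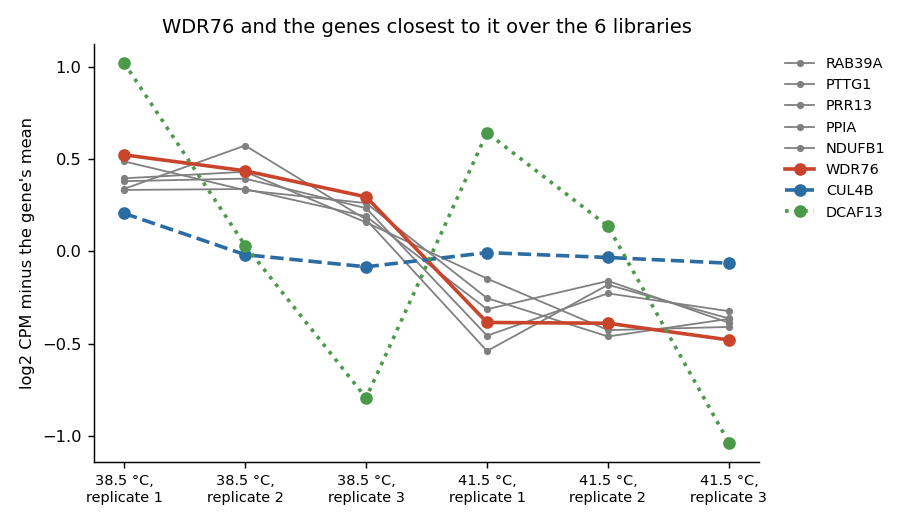
Log2 CPM minus the gene's own mean in each of the 6 libraries, for WDR76 (red), its 5 closest genes (grey), CUL4B (blue, dashed) and DCAF13 (green, dotted). Lines only guide the eye, since no label gives the replicate numbers an order. WDR76 and the grey genes step down between the groups, CUL4B stays near 0 and DCAF13 varies more within each group than between them.

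Genes that work with the ligase were read from 6 lists holding 137 distinct tested genes. By edgeR 0 of these were called and 4 had an unadjusted p below 0.05 (DCAF15, NAE1, KLHL12 and CDKN1A), which is 2.92% against 1.85% of all genes tested. DESeq2 also called 0, with 3 below 0.05. With the replicate number as a block 0 were called and 21 (15.3%) were below 0.05, against 9.25% of all genes tested. The median log2 fold change over all genes tested was -0.02, and 47.5% of them were higher at 41.5 °C.

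Of 26 other CUL4 receptors and receptor partners 25 were tested (FBXW5 had at most 9 reads), of which 16 were higher and 9 lower, and their log2 fold changes had a median of 0.12. This median was -0.01 without high-temperature replicate 1, where 11 were higher and 14 lower, and 0.03 without control replicate 1. In 2 of them, 8%, all heated libraries lay below all controls, against 4.05% of all genes. These were ERCC8 (CSA, the receptor of transcription-coupled repair), at 62.5, 47.7 and 44.8 CPM in controls and 43.2, 41.3 and 31.6 CPM at 41.5 °C, and the scarce DCAF15, at 1.58 ± 0.192 and 0.939 ± 0.155 CPM (SD, n = 3). DCAF1, a large receptor needed in oocytes, was the 1 receptor (4%, against 3.66% of all genes) with all heated libraries above, at 36.5 ± 0.450 CPM in controls and 39.7 ± 3.56 CPM at 41.5 °C, and its groups overlapped on the library total, TPM and FPKM scales. CRBN (cereblon, the target of thalidomide) was the most abundant receptor of the list at 60.1 TPM, and its value is uncertain because it overlaps TRNT1. DDA1, a small protein that binds the DDB1 complex, had 34.7 ± 17.1 CPM in controls and 43.3 ± 4.13 CPM at 41.5 °C (SD, n = 3).

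Of 32 genes that load NEDD8, remove it or otherwise regulate cullins, 31 were tested (GPS1 had at most 29 reads), with 12 higher and 19 lower. The median log2 fold change was -0.03, and 0.08 on scaling to the library total, where 20 were higher. It was 0.064 with control replicate 1 left out and 0.039 with high-temperature replicate 3 left out. NAE1, a subunit of the enzyme that activates NEDD8, had 39.5, 30.7 and 22.2 CPM in controls and 17.4, 20.3 and 17.8 CPM at 41.5 °C. Its groups did not overlap (log2 fold change -0.74, standard error 0.25), and neither did those of UBE2D3, a ubiquitin-conjugating enzyme, at 685 ± 24.1 and 592 ± 22.4 CPM (SD, n = 3). These were 2 of 31 genes, 6.45%, against 4.05% of all genes, and on the library total, TPM and FPKM scales the groups of UBE2D3 overlapped while those of NAE1 did not. NEDD8 itself had 140.1 ± 39.7 CPM in controls and 124 ± 31.4 CPM at 41.5 °C, and RNF7, the RING protein related to RBX1 had 140 ± 29.0 and 129 ± 22.3 CPM.

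Among 17 genes of other cullin ligases 16 were tested (CUL9 had at most 12 reads), with 6 higher, 10 lower and a median of -0.04. This median was 0.062 on scaling to the library total, 0.021 with control replicate 1 left out and 0.033 with high-temperature replicate 3 left out. SKP1, the adaptor of CUL1, had 1455 ± 411 CPM in controls and 1094 ± 207 CPM at 41.5 °C (SD, n = 3). ELOC, an adaptor of CUL2 and CUL5, was at 274 ± 114 and 203 ± 42.1 CPM, and CUL3 at 188 ± 53.9 and 169 ± 36.7 CPM. KLHL12, a scarce CUL3 receptor, was the only one of the 16 whose groups did not overlap, at 1.30 ± 0.171 CPM in controls and 2.31 ± 0.249 CPM at 41.5 °C. That is 6.25%, against 3.66% of all genes with heated libraries above.

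Substrates and partners of the CUL4 receptors numbered 15, all tested, with 8 higher, 7 lower and a median of 0.06. This median was -0.0022 without control replicate 1, 0.0012 without high-temperature replicate 2, 0.022 without high-temperature replicate 3, 0.11 with control replicate 3 left out and 0.17 with high-temperature replicate 1 left out. On scaling to the library total 11 were higher and 4 lower, with a median of 0.17. CDKN1A, the kinase inhibitor p21 that DTL targets, had 3.0, 4.0 and 4.91 CPM in controls and 5.78, 5.91 and 7.32 CPM at 41.5 °C, without overlap (log2 fold change 0.67, standard error 0.27). PCNA, the sliding clamp on which DTL finds its substrates, had 5172, 6749 and 6557 CPM in controls and 4040, 5132 and 4788 CPM at 41.5 °C, without overlap on the TMM and DESeq2 scales but with overlap on the library total, TPM and FPKM scales. PPP2R1A, a phosphatase subunit, was higher in all heated libraries at 9.91 ± 0.511 against 7.29 ± 2.89 CPM, where control replicate 1 was low at 3.96 CPM. With every heated library above were 2 of 15 (13.3%, against 3.66% of all genes), and with every one below 1 of 15 (6.67%, against 4.05%). GMNN (geminin, the inhibitor of CDT1) was at 392 ± 68.4 and 326 ± 22.8 CPM, and CHEK1, a checkpoint kinase, at 148 ± 22.2 and 132 ± 19.1 CPM (SD, n = 3).

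Of 13 proteins reported to bind WDR76 or to be degraded through it, 12 were tested (HRAS had at most 13 reads), with 5 higher, 7 lower and a median of -0.05. This median was 0.06 on scaling to the library total, 0.082 with control replicate 1 left out and 0.022 with high-temperature replicate 3 left out. HELLS, a chromatin remodeller, had 46.0, 47.7 and 48.4 CPM in controls and 35.9, 41.9 and 45.2 CPM at 41.5 °C. SPIN1, a reader of histone methylation, went the other way, at 8.77, 7.96 and 6.57 CPM in controls and 11.2, 10.6 and 10.1 CPM at 41.5 °C. The groups of SPIN1 did not overlap on any of the 5 scales, and those of HELLS overlapped on the library total, TPM and FPKM scales. Each is 1 of 12 genes (8.33%), against 3.66% of all genes with heated libraries above and 4.05% below. NRAS had 59.5 ± 7.73 CPM in controls and 49.8 ± 7.30 CPM at 41.5 °C, CBX3, a heterochromatin protein, had 398 ± 165 and 324 ± 94.2 CPM, and THYN1 had 239 ± 60.5 and 171 ± 39.6 CPM (SD, n = 3).

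WDR76 and DTL are among the genes that somatic cells transcribe in S phase, and the other 41 genes of that group were read as a list. By edgeR 11 were higher, 30 lower and 0 called, and the median log2 fold change was -0.13. Without high-temperature replicate 1 there were 17 higher and 24 lower with a median of -0.053. Without control replicate 3 there were likewise 17 and 24, with a median of -0.091. Leaving out each of the other libraries gave 7 to 9 higher and 32 to 34 lower, with medians of -0.18 to -0.11. In 7 of 41 (17.1%, against 4.05% of all genes tested) all heated libraries lay below all controls, and in 0 above. They were PRIM1, PCNA, TIPIN and MCM6 and, with smaller differences, HELLS, USP1 and POLA1. Among the 6310 tested genes with a mean of at least 10 CPM, 5.48% had every heated library below. On the library total, TPM and FPKM scales the groups of PRIM1, PCNA, TIPIN, MCM6, HELLS and POLA1 overlapped. Only USP1 among them stayed separate on every scale. PCNA, GMNN and HELLS stand in other lists as well.

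MCM6, a subunit of the replicative helicase, had 117, 122 and 109 CPM in controls and 84.1, 95.1 and 99.5 CPM at 41.5 °C. PRIM1, a primase subunit, had 12.3 ± 1.62 CPM in controls and 8.95 ± 1.28 CPM at 41.5 °C (SD, n = 3). TIPIN, a fork protection factor that overlaps DIS3L, was at 238 ± 14.8 and 188 ± 20.2 CPM, and RAD51AP1, a recombination factor that also overlaps other genes, at 371 ± 28.11 and 370 ± 45.1 CPM. The count for S phase genes depended on scaling. With the library total alone 2 of 41 (4.88%, against 2.13% of all genes) had every heated library below, and 18 genes were higher and 23 lower, with a median of -0.03. WDR76 kept its separation on that scale, but it was chosen for this separation, so the contrast with the S phase genes lends it no support.

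**Figure D5:**
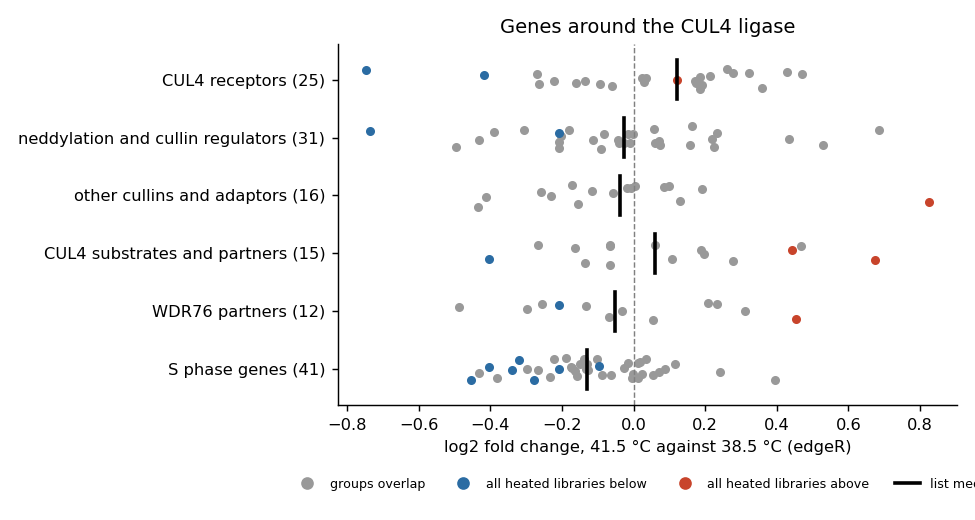
Log2 fold change of each tested gene of the 6 lists (number of genes in brackets), 41.5 °C against 38.5 °C, with the list median as a black line. Blue and red points are genes whose heated libraries all lie below or above the controls. The points of every list lie on both sides of 0, and the S phase list has 7 blue points and no red one.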

How the data were processed

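Poly(A) RNA was measured in 6 libraries, 3 per temperature, grouped by their titles. The authors deposited read counts per gene as whole numbers, and FPKM and TPM values beside them, per the file headers. The deposited per-sample tables also hold a coverage signal per gene, which enters no result, and gave positions and a check of columns. The build Sscrofa11.1 and the tools HISAT2 2.1.0, StringTie 2.1.3b, Trimmomatic 0.38, Bowtie2 and HISAT come from the submitters' processing notes, which assign no step to them. The sources used here do not give how reads were counted where genes overlap, nor with which tool. FPKM in each series column equalled that of the sample's own table within 1e-05 for 99.4% to 99.5% of genes. The 24 tRNA and rRNA rows without a symbol (0.527% to 0.658% of counts) were kept.

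The test on counts was that of edgeR 4.0.16 under R 4.3.3 (quasi-likelihood, TMM, default expression filter, group as single term, Benjamini-Hochberg over 16056 genes at 0.05). DESeq2 1.42.0 and limma 3.58.1 were alternatives, with others given in the closing section. Intervals are 95% Wald intervals with the posterior quasi-dispersion, and the code was tested on simulated data. Libraries of a group differed by far more than counting noise (chi-square per degree of freedom of 34.7 or more). Positions come from RefSeq (30352 identifiers matched). Named genes were the members, the 3 most abundant of each list, up to 4 per list whose groups did not overlap, and the 5 genes most like WDR76. The members and lists were chosen with earlier results of these data known, and the counts of non-overlapping groups on other scales were added after seeing the data.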

Additional observations from a re-analysis of the deposited data

How the results depend on the processing

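WDR76 had a log2 fold change between -0.90 and -0.74 over 16 alternatives, a range that is no test, since this contrast chose the gene. Genes called over the whole table numbered 1 with no filter on low counts, 5 with DESeq2 and 3 with a replicate block, against 0 otherwise, and 0 without each library in turn. Of the members 1 was called by DESeq2 (WDR76, which this contrast had chosen), and this call is no test of the gene. With edgeR and limma 0 members were called in any setting, also with the replicate block and without each library in turn. With the replicate block the 7 other members had adjusted p of 0.637 to 0.981 and DCAF13 a log2 fold change of -0.17 with a standard error of 0.12 in place of 0.52. The main fit did not take the replicate numbers to pair the libraries, since no label states a pairing. Deviations from the group mean correlated at 0.48, 0.01 and 0.54 for the numbers 1, 2 and 3. They correlated at -0.52 for control replicate 1 with high-temperature replicate 3, and at -0.48 for control replicate 3 with high-temperature replicate 1. Replicate 2 lay between the others for many genes, so its value near 0 cannot decide on pairing. Whether the numbers mark a shared batch was not tested. The libraries numbered 1 and 3 correlated best with their own number. Control replicate 2 correlated best with high-temperature replicate 3 (0.06), and high-temperature replicate 2 with control replicate 1 (0.13).

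Signs near 0 turned. Scaling to the library total gave 0.061 for DDB2 and 0.029 for CUL4B, and CUL4B was at 0.062 on log2(TPM + 1), 0.063 on log2(TPM + 0.1) and 0.064 on log2(FPKM + 1). Leaving out 1 library gave -0.12 to 0.10 for DDB2, -0.14 to 0.015 for CUL4B, -0.61 to 0.39 for DCAF13, -0.068 to 0.15 for DTL and -0.19 to 0.013 for RBX1. DDB1 and CUL4A stayed above 0, at 0.11 to 0.50 and 0.20 to 0.41. The low counts of DDB1, DDB2 and CUL4A (70 to 218 reads per library) limit their precision.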
